A study of Mus musculus with 20 samples.

Results

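The genes of the mevalonate and cholesterol synthesis pathway, together with the proteins that control the sterol-sensing transcription factors SREBP and a few further genes of sterol handling and fatty acid synthesis, were followed across lymph nodes of 5 positions. The set holds 29 of the 56258 genes of the deposited gene table, chosen by symbol. It was put together with the difference between jejunal and ileal nodes already seen in these data, so that difference is given as a description without a test. The 29 genes fall into 8 of the mevalonate branch, 11 of squalene and sterol synthesis, 5 of SREBP control, 2 of sterol handling and 3 of fatty acid synthesis, and 29 of 29 passed the filter on low counts. Whole nodes were taken at 9 weeks of age from Rag1-/- mice (B6.129S7-Rag1tm1Mom/J), and polyadenylated RNA was sequenced. Duodenal, jejunal and ileal nodes and the ceco-colonic node, each draining the stretch of gut it is named for, were set beside the inguinal node, which drains skin, with 4 libraries each. Every library, inguinal ones included, comes from Rag1-deficient animals, which lack mature T and B cells, so no group shows the nodes of mice with lymphocytes. Whether the 4 libraries per position stand for 4 animals is not in the labels, and p-values measure only the spread between libraries, which may be technical.

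Cholesterol is built from acetyl-CoA. The mevalonate branch makes the isoprenoid units, squalene is formed from farnesyl diphosphate and oxidized, and a long series of demethylations, reductions and isomerizations turns lanosterol into cholesterol. SREBP proteins are held in the endoplasmic reticulum by Scap and Insig proteins when sterols are plentiful. When sterols fall, Scap carries them to the Golgi, where they are cleaved and released to the nucleus to switch on most enzymes of the pathway. SREBP-2, from Srebf2, acts mainly on sterol synthesis and uptake, and SREBP-1c, one product of Srebf1, mainly on fatty acid synthesis. In a lymph node the RNA comes from macrophages, dendritic cells, stromal and endothelial cells and any fat attached to the node.

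Promoters are shown for 7 members, so that matches to short motifs of SREBP and its partner NF-Y can be seen beside the genes whose levels follow. The members are 2 mevalonate enzymes (Hmgcs1, Idi1), 2 sterol enzymes (Cyp51, Msmo1) and 3 control genes (Insig1, Srebf2, Scap). Of these Scap was called lower and the rest higher in gut nodes. Each promoter is the 250 bases before the annotated start, 5′ to 3′ on the gene's strand, from RefSeq (GRCm38.p6). Capitals mark TCACNCC, the core of a sterol regulatory element, and CCAAT, the NF-Y box, on either strand. Sites that depart from these letters stay in lower case, so a window without a match may still hold one.
Hmgcs1: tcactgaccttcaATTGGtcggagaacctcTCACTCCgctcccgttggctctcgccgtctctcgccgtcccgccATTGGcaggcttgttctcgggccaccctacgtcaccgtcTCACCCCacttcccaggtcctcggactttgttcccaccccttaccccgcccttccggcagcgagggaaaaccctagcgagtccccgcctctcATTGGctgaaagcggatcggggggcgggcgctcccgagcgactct
Idi1: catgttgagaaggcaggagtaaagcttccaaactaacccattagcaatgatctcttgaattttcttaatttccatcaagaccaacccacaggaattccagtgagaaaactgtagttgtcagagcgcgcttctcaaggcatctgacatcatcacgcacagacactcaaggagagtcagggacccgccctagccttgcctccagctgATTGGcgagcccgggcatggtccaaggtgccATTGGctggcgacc
Cyp51: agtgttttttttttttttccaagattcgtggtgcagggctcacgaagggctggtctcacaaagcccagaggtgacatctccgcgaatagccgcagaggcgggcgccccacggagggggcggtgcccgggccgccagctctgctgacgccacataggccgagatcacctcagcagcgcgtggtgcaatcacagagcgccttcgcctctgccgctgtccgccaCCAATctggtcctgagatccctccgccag
Msmo1: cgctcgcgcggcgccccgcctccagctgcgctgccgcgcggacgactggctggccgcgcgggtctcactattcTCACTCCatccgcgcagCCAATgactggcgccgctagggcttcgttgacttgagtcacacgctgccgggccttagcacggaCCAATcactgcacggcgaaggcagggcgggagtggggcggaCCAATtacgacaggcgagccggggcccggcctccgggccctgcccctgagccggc
Insig1: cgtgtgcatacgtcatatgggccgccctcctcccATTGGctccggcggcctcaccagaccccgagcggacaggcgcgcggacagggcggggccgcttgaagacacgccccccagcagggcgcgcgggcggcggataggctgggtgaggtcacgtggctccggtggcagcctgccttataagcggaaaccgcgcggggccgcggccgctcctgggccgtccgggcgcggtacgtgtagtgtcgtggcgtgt
Srebf2: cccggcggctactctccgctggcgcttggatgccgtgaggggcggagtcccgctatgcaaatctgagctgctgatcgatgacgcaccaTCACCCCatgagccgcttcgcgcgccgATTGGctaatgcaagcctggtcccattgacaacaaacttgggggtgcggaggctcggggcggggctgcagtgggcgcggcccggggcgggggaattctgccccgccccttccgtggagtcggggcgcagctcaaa
Scap: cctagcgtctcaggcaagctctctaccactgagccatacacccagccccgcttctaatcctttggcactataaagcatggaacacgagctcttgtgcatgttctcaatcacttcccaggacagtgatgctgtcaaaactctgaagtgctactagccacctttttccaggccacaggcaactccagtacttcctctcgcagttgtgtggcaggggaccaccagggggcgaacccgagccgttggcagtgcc
These lie at chr13:119690101-119690350, plus strand (Hmgcs1), chr13:8885356-8885605, plus strand (Idi1), chr5:4104698-4104947, minus strand (Cyp51), chr8:64733579-64733828, minus strand (Msmo1), chr5:28071162-28071411, plus strand (Insig1), chr15:82147019-82147268, plus strand (Srebf2) and chr9:110333038-110333287, plus strand (Scap), all upstream of the first exon. In this window Hmgcs1 had 2 TCACNCC and 3 CCAAT matches, Msmo1 1 and 3, and Srebf2 1 of each. Idi1 had 2 CCAAT matches, Cyp51 and Insig1 1 each, and the Scap window shown held neither.

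Promoters were found by symbol for 24 of the 29 members, with 32 starts. CCAAT, searched on both strands, stood in 22 of these 32 windows (68.8%) and in 33.8% of the 32851 RefSeq promoter windows of the same length. GGGCGG, the box of Sp1, stood in 24 of 32 (75.0%) against 32.7% of all windows. TCACNCC stood in 6 of 32 (18.8%) against 13.4%, and the longer TCACNCCAC, every match of which is also one of TCACNCC, in 1 of 32 (Hmgcs1) against 1.05%. Starts of 1 gene can overlap, and these matches describe letters in a window, not bound sites. Sqle, Stard4, Fdps, Fdft1 and Scd2 are named only.

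Libraries held 148 to 305 M (mega counts) estimated counts. Levels below are CPM (counts per M counts, scaled by TMM), which compare 1 gene between libraries, while TPM (transcripts per M), which corrects for length, is used to compare genes. Rag1 itself was read at 1.98 to 3.43 CPM in every position; all mice carry the mutation and whole-gene counts do not show the altered part, so this checks no label. Neighbouring tissue differed between libraries. The summed level of 12 adipocyte genes, of which Car3 and Cfd were the most abundant, was 1108 to 3523 CPM in jejunal and 1248 to 2061 CPM in ileal nodes against 302 to 875 in duodenal nodes. It was 313 to 709.7 CPM in the ceco-colonic position, 325 to 1334 CPM in the inguinal one. Summed pancreatic acinar genes reached 43417 CPM in the duodenal position, in libraries 1 and 2, and no more than 123 CPM elsewhere. Of 10 macrophage genes, led by Lyz2 and Csf1r, the sum was 3964 to 4886 CPM in duodenal, 4241 to 4838 in inguinal and 4955 to 6258 in the other nodes. Markers of lymphatic endothelium (3238 to 4987 CPM summed over 6 genes in gut nodes, 2034 to 2538 in inguinal) and of fibroblasts (3017 to 4167 against 2541 to 3092 over 8 genes) were read in every library, and none of the marker genes was at 0 throughout a position. The lymphatic sum is mostly Ccl21a and Marco (means of 2178 and 1078 CPM over all libraries), so it need not follow the other genes of that list. In whole nodes, fewer cells of a type and less RNA per cell cannot be told apart.

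Corrected for length, the most abundant members in ceco-colonic nodes, taken as one example, were Acly (mean 87.4 TPM), Srebf2 (68.4 TPM) and Idi1 (68.1 TPM), and the least abundant Hsd17b7 (2.72 TPM) and Lss (6.05 TPM). Over the 5 positions the mean CPM was lowest in the inguinal node for 19 of the 29 members, in the duodenal for 5, the ceco-colonic for 4 and the jejunal for 1, and in the ileal for 0. It was highest in the jejunal node for 12, in duodenal and ileal for 6 each, in inguinal for 3 (Scap, Mylip and Scd2) and in ceco-colonic for 2 (Idi1 and Pmvk). The ratio of the highest to the lowest position mean was 3.55 for Fasn, 2.79 for Sqle and 2.75 for Idi1, and it was smallest for Ggps1 (1.095).

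Members not given library by library below are given here by their position means (CPM ± SD, n = 4), in the order duodenal, jejunal, ileal, ceco-colonic and inguinal. In the mevalonate branch Mvk stood at 14.1 ± 1.23, 15.1 ± 1.22, 15.3 ± 0.713, 14.6 ± 0.570 and 13.2 ± 0.510. Mvd stood at 28.9 ± 3.75, 33.8 ± 4.70, 32.6 ± 2.58, 33.2 ± 3.01 and 25.9 ± 0.663, and Ggps1 at 30.5 ± 0.890, 29.1 ± 2.43, 28.6 ± 2.69, 27.8 ± 1.92 and 29.2 ± 0.183. Mvd was lowest in the inguinal and duodenal nodes, while the Ggps1 means lay within 3 CPM of each other. Among the sterol enzymes Lss stood at 16.1 ± 3.07, 16.4 ± 2.18, 16.1 ± 1.60, 16.01 ± 1.63 and 14.4 ± 0.905. Nsdhl stood at 14.3 ± 1.35, 15.3 ± 1.60, 13.9 ± 0.576, 12.8 ± 0.932 and 12.1 ± 0.713, Dhcr7 at 18.9 ± 1.22, 19.3 ± 0.975, 17.5 ± 1.22, 17.3 ± 1.24 and 16.1 ± 0.666 and Ebp, of which some libraries follow later, at 25.6 ± 2.16, 28.1 ± 2.94, 30.3 ± 1.81, 30.01 ± 1.87 and 28.4 ± 1.20. The inguinal mean was the lowest for the first 3 of these, and the duodenal mean for Ebp.

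**Figure D1:**
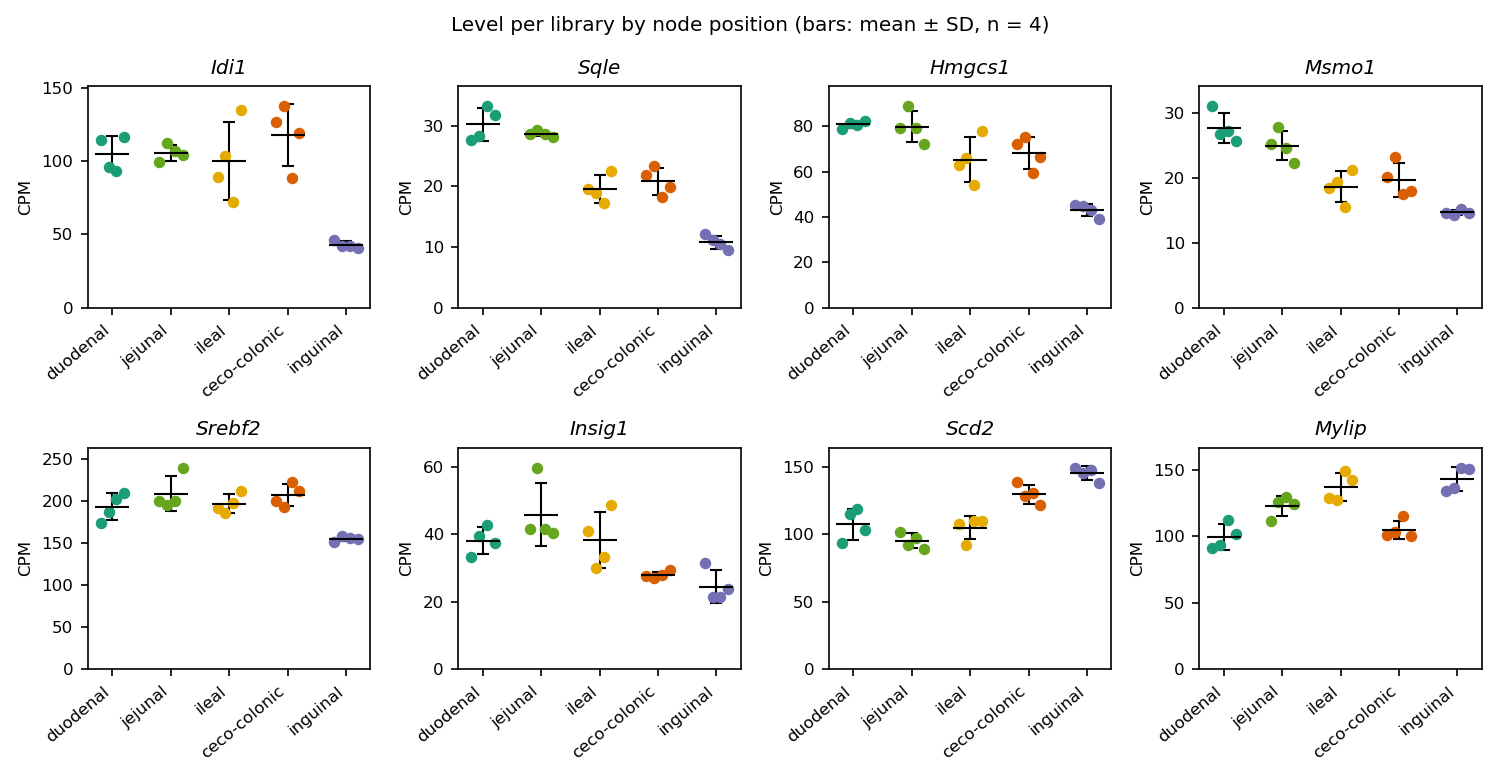
CPM (vertical axes, linear from 0) of 8 members in each library (points) with the mean and SD of the 4 libraries of each position. Inguinal libraries of Sqle lie at 9.53 to 12.1 CPM, below every gut library (17.2 to 33.2 CPM).

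Jejunal and ileal nodes were compared first, as a description, since this difference chose the set. Some squalene and sterol enzymes were higher in the jejunal libraries, while Lss was nearly level (log2 difference 0.02) and Tm7sf2 (-0.10) and Ebp (-0.11) were below 0. Sqle (squalene epoxidase, ENSMUSG00000022351) stood at 28.6, 29.3, 28.7 and 28.2 CPM in jejunal libraries 1 to 4 and at 19.6, 18.9, 17.2 and 22.6 CPM in ileal ones, a log2 difference of 0.55 ± 0.0907 (SE). Stard4, which carries sterols between membranes, stood at 42.01, 36.4, 41.1 and 36.4 against 29.9, 30.3, 27.5 and 27.99 CPM (0.43 ± 0.0589). In both genes every jejunal library lay above every ileal one. Msmo1, a methylsterol oxidase, was at 25.2, 27.8, 24.7 and 22.3 against 18.5, 19.4, 15.48 and 21.2 CPM (0.42 ± 0.0969). Cyp51, the lanosterol demethylase, was at 48.3, 52.3, 48.3 and 61.03 against 37.8, 42.1, 38.3 and 46.8 CPM (0.35 ± 0.0824). Hsd17b7, a sterol ketoreductase, was at 9.24, 11.3, 10.8 and 9.37 against 7.82, 7.76, 8.86 and 8.12 CPM (0.32 ± 0.0978). These 5 were the members whose libraries did not overlap, all with jejunal higher; over all 29411 genes tested, 1.35% did not overlap with jejunal higher and 1.5% with jejunal lower.

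Further members overlapped. Hmgcs1, the enzyme that forms hydroxymethylglutaryl-CoA, was at 79.1, 88.9, 79.3 and 72.3 CPM in jejunal and 62.99, 66.2, 54.1 and 77.96 CPM in ileal libraries (0.29 ± 0.0918), so that ileal library 4 alone reached the jejunal range. Fdft1, squalene synthase, was at 25.05, 33.5, 25.9 and 28.2 against 21.9, 22.5, 19.8 and 28.9 CPM (0.27 ± 0.107), again with ileal library 4 among the jejunal values. Insig1, which holds Scap in the endoplasmic reticulum, was at 41.6, 59.7, 41.6 and 40.3 against 41.002, 30.01, 33.2 and 48.7 CPM (0.26 ± 0.150). Fasn, fatty acid synthase, was at 412, 880.3, 291 and 378 against 907, 329.6, 394 and 711 CPM (-0.26 ± 0.482), a spread within each position wider than the difference. The log2 difference was above 0 for 19 of the 29 members, with a median of 0.08, and 0.01 over all genes tested. It was below 0 for Mylip (-0.16), Scd2 (-0.14), Ebp (-0.11), Tm7sf2 (-0.10), Pmvk (-0.09), Srebf1 (-0.09), Scap (-0.08), Acly (-0.06) and Mvk (-0.02), beside Fasn. The remaining members, Sc5d (0.21), Fdps (0.21), Acat2 (0.20), Dhcr7 (0.14), Nsdhl (0.14), Srebf2 (0.09), Idi1 (0.08), Mvd (0.05), Insig2 (0.04), Lss (0.02) and Ggps1 (0.02), were above 0. On the length-corrected TPM scale 3 members did not overlap. The adipocyte sums were 1256, 3523, 1108 and 1112 CPM in jejunal libraries 1 to 4 and 2040, 1564, 1248 and 2061 CPM in ileal ones. Jejunal library 2 was thus the highest, and the other jejunal libraries overlapped ileal library 3 alone. The part of these sums in the member differences was not tested.

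The gut-draining nodes (mean of 4 positions, 16 libraries) were then set against the inguinal node (4 libraries), a comparison in which jejunal and ileal nodes stand on the same side. Most of the pathway was higher in gut nodes: of 29 members 19 were higher and 3 lower in the quasi-likelihood test of edgeR, adjusted over all 29411 genes by the method of Benjamini and Hochberg; 26.3% of those genes were called, 13.4% higher and 12.9% lower. The median log2 fold change of the members was 0.31, and 0.00 over all genes tested. In 8 members no gut library overlapped the inguinal ones (Idi1, Hmgcs1, Fdps, Fdft1, Sqle, Cyp51, Msmo1 and Srebf2), all higher in the gut; over all genes tested, 4.71% did not overlap with the gut higher and 4.82% with the gut lower.

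Of the 8 mevalonate members 7 were higher and 0 lower. Idi1 (ENSMUSG00000058258), which interconverts the 2 isoprenoid units, stood at 46.4, 41.96, 42.2 and 40.7 CPM in inguinal libraries 1 to 4 and at 72.2 to 137 CPM in the gut. In detail it was at 115, 95.7, 93.5 and 116 in duodenal, 99.3, 112, 107 and 104 in jejunal, 89.1, 104, 72.2 and 135 in ileal and 127, 137, 88.4 and 119 CPM in ceco-colonic libraries. The lowest gut library, ileal 3, lay above the highest inguinal one, and the change was 2.50-fold (log2 fold change 1.32 ± 0.126 SE, adjusted p = 8.76e-08). Hmgcs1 was at 45.4, 44.8, 43.02 and 39.2 CPM in inguinal libraries and 78.7, 81.7, 80.7 and 82.4 CPM in duodenal and 72.4, 75.1, 59.4 and 66.5 CPM in ceco-colonic ones (0.77 ± 0.0767, adjusted p = 1.68e-07). Fdps, farnesyl diphosphate synthase, was at 23.6, 24.4, 22.5 and 21.3 CPM in inguinal libraries and at 44.3, 38.1, 43.1 and 43.5 in duodenal, 37.1, 43.02, 39.2 and 44.2 in jejunal, 34.2, 34.3, 30.6 and 42.4 in ileal and 38.4, 40.7, 34.4 and 35.2 CPM in ceco-colonic ones (0.76 ± 0.0726, adjusted p = 9.20e-08). These 3 enzymes therefore showed a gap between gut and skin-draining nodes in every library. Smaller changes were found for the thiolase Acat2 (0.36 ± 0.113), the decarboxylase Mvd (0.31 ± 0.0767) and the kinases Pmvk (0.25 ± 0.0621) and Mvk (0.16 ± 0.0553), whose gut and inguinal libraries overlapped. Ggps1, the branch enzyme toward protein prenylation, was at 29.01 ± 2.12 against 29.2 ± 0.183 CPM (mean ± SD, n = 16 and 4; adjusted p = 0.934). Acat2 was no longer called without inguinal library 2, 3 or 4 (adjusted p of 0.0840 to 0.101) and when the mean adipocyte marker level was a covariate (adjusted p = 0.0941). The call on Mvk was lost without duodenal library 3 or 4, ileal library 1, 2 or 4, ceco-colonic library 1 or 2, inguinal library 1, 3 or 4 (adjusted p of 0.0503 to 0.140) and with that covariate (adjusted p = 0.0868). With the macrophage level as covariate, a fit added after seeing the data, Acat2 and Mvk were not called. Mvk also lost its call with limma-voom, with no filter on low counts, and without both jejunal library 2 and inguinal library 1. Reads of Acat2 and its near-identical copy Acat3 may be split with some uncertainty.

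Of the 11 squalene and sterol members 9 were higher and 0 lower in gut nodes. Sqle, the step after squalene at which oxygen first enters the molecule, was at 12.1, 11.2, 10.5 and 9.53 CPM in inguinal and at 27.7, 28.3, 33.2 and 31.7 in duodenal, 19.6, 18.9, 17.2 and 22.6 in ileal and 21.9, 23.3, 18.3 and 19.8 CPM in ceco-colonic libraries, with the jejunal values given above. No gut library reached the inguinal range, and the change was 2.25-fold (1.17 ± 0.0780, adjusted p = 4.81e-10). Cyp51 was at 31.4, 28.99, 30.9 and 28.1 CPM in inguinal, 49.2, 48.8, 49.1 and 57.1 in duodenal and 40.996, 42.4, 36.8 and 39.2 CPM in ceco-colonic libraries (0.62 ± 0.0680, adjusted p = 6.12e-07). Msmo1 was at 14.6, 14.4, 15.2 and 14.7 CPM in inguinal, 31.1, 26.8, 27.2 and 25.7 in duodenal and 20.1, 23.2, 17.6 and 17.97 CPM in ceco-colonic libraries (0.61 ± 0.0800, adjusted p = 5.73e-06). In both, ileal libraries lay between the inguinal and the jejunal ones. The others called were the sterol reductase Tm7sf2 (0.58 ± 0.0852), Fdft1 (0.53 ± 0.0879), Hsd17b7 (0.46 ± 0.0800), the desaturase Sc5d (0.39 ± 0.0691), the dehydrogenase Nsdhl (0.22 ± 0.0654) and the late reductase Dhcr7 (0.18 ± 0.0539). Lss, lanosterol synthase (16.2 ± 1.97 against 14.4 ± 0.905 CPM), and the isomerase Ebp (28.5 ± 2.78 against 28.4 ± 1.20 CPM) were not called (adjusted p = 0.211 and 0.981). Nsdhl ceased to be called without inguinal library 2 or 4 (adjusted p of 0.0571 to 0.0789) and with the adipocyte covariate (adjusted p = 0.0854), as did Dhcr7 without inguinal library 1 or 4 (adjusted p of 0.0765 to 0.0792). Dhcr7 also lost its call with the macrophage covariate and without both jejunal library 2 and inguinal library 1.

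Control genes did not move as one. Srebf2 (ENSMUSG00000022463), the source of SREBP-2, was at 151, 158, 157 and 155 CPM in inguinal libraries against 174, 188, 203.2 and 209.9 in duodenal, 200.1, 196, 200.8 and 240.1 in jejunal, 192, 187, 199 and 212 in ileal and 200.4, 194, 223 and 212 CPM in ceco-colonic ones. Every gut library was above every inguinal one, by 0.38 ± 0.0577 on the log2 scale (adjusted p = 3.81e-05). Insig1, itself an SREBP target, was at 31.5, 21.3, 21.4 and 23.6 CPM in inguinal, 33.1, 39.4, 42.7 and 37.3 in duodenal and 27.5, 26.9, 27.8 and 29.3 CPM in ceco-colonic libraries (0.60 ± 0.124, adjusted p = 9.68e-04), with inguinal library 1 inside the gut range. Scap was lower in gut nodes: 83.8, 87.97, 89.3 and 90.1 CPM in inguinal libraries against 66.5, 66.97, 75.3 and 71.9 in duodenal, 73.2, 70.1, 74.2 and 83.5 in jejunal, 79.7, 73.99, 85.3 and 79.01 in ileal and 73.5, 71.7, 89.4 and 76.6 CPM in ceco-colonic ones (-0.22 ± 0.0548, adjusted p = 0.00525). Of the gut libraries, ileal library 3 and ceco-colonic library 3 lay within the inguinal range and the rest below it. Srebf1 was at 119, 108, 103 and 113 CPM in inguinal and 102, 91.8, 113 and 89.996 CPM in ceco-colonic libraries and was not called (-0.08 ± 0.0911, adjusted p = 0.585), nor was Insig2, at 20.5, 18.1, 17.7 and 20.4 CPM in inguinal and 15.6, 16.8, 17.2 and 19.5 CPM in ceco-colonic libraries (0.10 ± 0.0741, adjusted p = 0.355). With adipocyte level as covariate Srebf1 was called lower (-0.22, adjusted p = 0.0373).

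The 2 sterol-handling genes split too. Stard4 was higher in gut nodes (34.6 ± 5.08 against 27.7 ± 1.22 CPM, mean ± SD, n = 16 and 4; 0.31 ± 0.0475, adjusted p = 4.85e-05). Mylip, a ubiquitin ligase that degrades lipoprotein receptors and is induced when sterols are plentiful, was lower: it was at 134, 136, 152 and 150.4 CPM in inguinal against 90.7, 93.1, 112 and 102 in duodenal, 112, 126, 129 and 125 in jejunal, 129, 127, 149 and 142 in ileal and 101, 103, 115 and 99.8 CPM in ceco-colonic libraries (-0.31 ± 0.0583, adjusted p = 3.32e-04). Scd2, a fatty acid desaturase, was lower as well, at 149, 145, 148 and 138 CPM in inguinal, 93.6, 115, 119 and 103 in duodenal, 102, 92.1, 97.5 and 89.3 in jejunal, 108, 92.4, 110.0 and 109.7 in ileal and 138, 129, 130.3 and 121 CPM in ceco-colonic libraries (-0.42 ± 0.0566, adjusted p = 9.20e-06). Ceco-colonic library 1 was the gut library that reached the inguinal Scd2 range. Fasn (0.12 ± 0.384, adjusted p = 0.864) and Acly, which supplies cytosolic acetyl-CoA (0.17 ± 0.0979, adjusted p = 0.224), were not called. Of the 12 adipocyte genes 1 was higher and 0 lower in this comparison, the 10 macrophage genes gave 4 higher and 1 lower, and of 10 cell division genes 4 were higher. The adipocyte log2 fold changes were nevertheless above 0 for 11 of the 12 genes, with a median of 0.82. Of 6 blood endothelial genes 0 were higher and 5 lower, their sum standing at 736 to 1234 CPM in gut and 1438 to 1599.8 CPM in inguinal libraries. Of 8 fibroblast genes 5 were higher and 1 lower, of 6 lymphatic endothelial genes 4 higher and 0 lower, and of 10 immediate early and stress genes 4 higher and 0 lower. The part of these 4 kinds of marker in the member differences was not tested. With adipocyte level as covariate 16 members were higher and 4 lower.

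**Figure D2:**
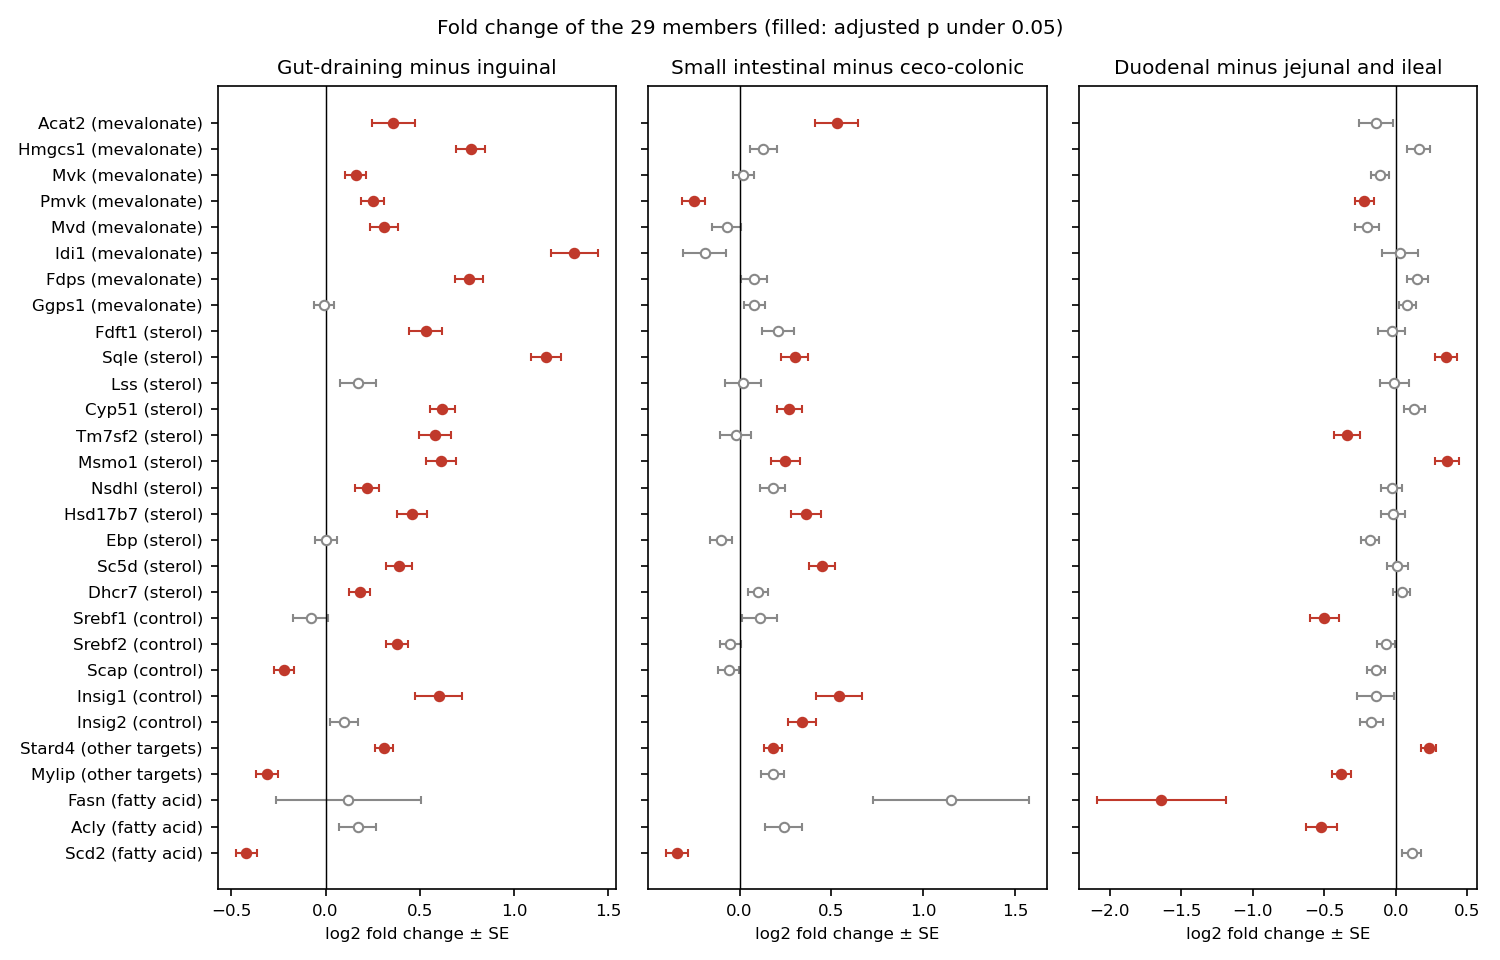
Log2 fold change with SE (horizontal axes) of the 29 members in the 3 mutually independent comparisons, 1 panel each with its own scale. In the panel of gut-draining against inguinal nodes 19 members are called higher and 3 lower.

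Ceco-colonic nodes were then set against inguinal nodes alone. The 2 positions had adipocyte sums that overlapped (313 to 709.7 and 325 to 1334 CPM), and 0 of 12 adipocyte genes were called between them by edgeR, with log2 fold changes below 0 for 11 of the 12 (median -0.28). Other markers differed: 6 of 6 blood endothelial genes were lower in ceco-colonic nodes (736 to 878 CPM summed, against 1438 to 1599.8), 3 of 6 lymphatic endothelial genes were lower and 1 higher, and 2 of 7 smooth muscle genes were lower. Of 10 cell division genes 4 were higher, of 10 immediate early and stress genes 4, of 8 fibroblast genes 3, and of 7 dendritic cell genes 3 with 1 lower. Their part in the member differences was not tested. Ceco-colonic nodes had 12 members higher and 1 lower than inguinal nodes, where 21% of all genes tested were called, 10.6% higher and 10.3% lower. This comparison shares its libraries with the one above. Idi1 was 2.75-fold higher (118 ± 21.1 against 42.8 ± 2.50 CPM, mean ± SD, n = 4 each; 1.46 ± 0.148, adjusted p = 3.67e-07), and Sqle 1.92-fold (20.8 ± 2.21 against 10.8 ± 1.08 CPM; 0.94 ± 0.0915, adjusted p = 2.05e-07). Fdps (0.70 ± 0.0875), Hmgcs1 (0.67 ± 0.0922), Tm7sf2 (0.59 ± 0.104), Pmvk (0.44 ± 0.0773), Cyp51 (0.42 ± 0.0825), Msmo1 (0.42 ± 0.0971), Srebf2 (0.42 ± 0.0712), Fdft1 (0.38 ± 0.107), Mvd (0.36 ± 0.0950) and Stard4 (0.17 ± 0.0589) were higher too. In each of the 12 the libraries did not overlap, as in 13.1% of all genes tested with the ceco-colonic libraries above and 13.5% with them below. Mylip was the member that was lower (-0.45 ± 0.0754, adjusted p = 1.70e-04), and its ceco-colonic libraries all lay below the inguinal ones. Insig1 (0.19 ± 0.150, adjusted p = 0.445), Sc5d (0.05 ± 0.0850, adjusted p = 0.751) and Acat2 (-0.04 ± 0.139, adjusted p = 0.908), called over all gut nodes, were not called here. The Fdft1 call was lost without inguinal library 2 (adjusted p = 0.0508), and that on Stard4 without duodenal library 2 or 3, jejunal library 3, ileal library 1, 2, 3 or 4, ceco-colonic library 1, 2 or 4, inguinal library 1, 2 or 4 (adjusted p of 0.0582 to 0.166). Stard4 also lost it without both duodenal libraries 1 and 2 (adjusted p = 0.0566).

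Small intestinal nodes (duodenal, jejunal and ileal, 12 libraries) were set against ceco-colonic nodes (4 libraries). Of 29 members 9 were higher and 2 lower, beside 16.6% of all genes tested called, 8.9% higher and 7.74% lower, and the median log2 fold change was 0.13 (0.01 over all genes). The higher ones included 5 of the 11 sterol members and both Insig genes, and 1 of the 8 mevalonate members. Sc5d was at 28.2, 27.3, 24.4 and 26.2 CPM in ceco-colonic libraries and at 31.02, 36.4, 39.3 and 39.01 in duodenal, 35.9, 45.1, 38.5 and 35.97 in jejunal and 33.1, 33.4, 30.2 and 37.9 CPM in ileal ones (0.45 ± 0.0712, adjusted p = 1.24e-04). Acat2 was at 10.6, 10.96, 10.3 and 10.5 CPM in ceco-colonic libraries and at 12.3, 13.4, 17.5 and 13.9 in duodenal, 14.8, 22.4, 15.9 and 14.5 in jejunal and 15.1, 13.8, 13.04 and 16.97 CPM in ileal ones (0.53 ± 0.117, adjusted p = 0.00320). Insig1 had a change of 0.54 ± 0.126 (adjusted p = 0.00476), and in these 3 genes no library of the ceco-colonic node overlapped the small intestine, as in 2.97% of all genes tested with the small intestine above and 3.21% with it below. Hsd17b7 was at 6.67, 7.24, 6.74 and 7.68 CPM in ceco-colonic and 7.37, 8.72, 10.5 and 9.35 CPM in duodenal libraries (0.36 ± 0.0815, adjusted p = 0.00410). Insig2, the second Insig protein, was at 17.3, 19.97, 23.6 and 19.7 in duodenal, 23.1, 23.6, 22.6 and 22.5 in jejunal and 19.3, 21.4, 24.97 and 23.96 CPM in ileal libraries (0.34 ± 0.0775, adjusted p = 0.00422). Sqle (0.30 ± 0.0752), Cyp51 (0.27 ± 0.0683), Msmo1 (0.25 ± 0.0802) and Stard4 (0.18 ± 0.0486) were higher by less, and their ileal libraries overlapped the ceco-colonic ones. For Sqle, Msmo1 and Stard4 the ileal mean lay below the ceco-colonic mean, so only the duodenal and jejunal means were higher. For Cyp51 the ileal mean lay above it.

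In the other direction Scd2 (-0.34 ± 0.0590, adjusted p = 3.22e-04) and Pmvk (-0.25 ± 0.0621, adjusted p = 0.00659) were lower in the small intestinal nodes. Scd2 was the 1 member whose small intestinal libraries all lay below the ceco-colonic ones, as in 3.21% of all genes tested. Pmvk, phosphomevalonate kinase, was at 40.9, 41.6, 36.6 and 38.5 CPM in ceco-colonic libraries against 34.99, 26.9, 29.5 and 27.99 in duodenal, 33.2, 34.3, 31.2 and 35.8 in jejunal and 35.2, 36.6, 32.6 and 39.2 CPM in ileal ones. Fasn was at 416 ± 273 against 165 ± 39.005 CPM (mean ± SD, n = 12 and 4; 1.15 ± 0.423, adjusted p = 0.0711) and was not called. Of 6 lymphatic endothelial genes 5 were higher in the small intestinal nodes and 1 lower, of 12 acinar genes 7 were higher and 0 lower, and their part in the member differences was not tested. Over the 20 libraries the mean lymphatic endothelial level correlated with log2 CPM at 0.81 for Acat2, 0.77 for Insig2, 0.76 for Sc5d and 0.75 for Insig1, and at 0.49, 0.25, 0.29 and 0.30 as deviations from position means. Adipocyte RNA moved with this comparison as well: 4 of 12 adipocyte genes were higher, and with adipocyte level as covariate 3 members were higher (Sc5d, Cyp51 and Stard4) and 1 lower (Scd2). Under that covariate the log2 fold change was 0.27 for Acat2 (adjusted p = 0.0980), 0.25 for Insig1 (adjusted p = 0.135), 0.24 for Insig2 (adjusted p = 0.0963), 0.30 for Hsd17b7 (adjusted p = 0.0633), 0.25 for Sqle (adjusted p = 0.0953), 0.27 for Msmo1 (adjusted p = 0.0989) and -0.24 for Pmvk (adjusted p = 0.0539). Msmo1 also lost its call without jejunal library 2, ceco-colonic library 1, 3 or 4 (adjusted p of 0.0530 to 0.144). Without duodenal libraries 1 and 2 together, 11 members were higher, Nsdhl, Mylip and Acly among them, and Msmo1 was not (adjusted p = 0.0649).

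Duodenal nodes were set against the mean of jejunal and ileal nodes, which asks for a difference along the small intestine without using the one between jejunum and ileum. Of 29 members 3 were higher and 6 lower, beside 13.9% of all genes tested called, 6.42% higher and 7.47% lower. The 3 higher ones were Sqle (0.35 ± 0.0773, adjusted p = 0.00561), Stard4 (39.9, 39.3, 40.7 and 36.98 CPM in duodenal libraries; 0.23 ± 0.0505, adjusted p = 0.00639) and Msmo1 (0.36 ± 0.0827, adjusted p = 0.00750). For these, duodenal and jejunal libraries overlapped and the ileal ones lay below. By size of change, the lower members were led by 2 of the 3 fatty acid synthesis genes, Fasn and Acly. Scd2, also of that group, was not called (log2 fold change 0.11). Fasn was at 106, 165, 248 and 168 CPM in duodenal libraries against 291 to 907 CPM in jejunal and ileal ones, 3.12-fold lower (-1.64 ± 0.453, adjusted p = 0.0214). Acly was at 165, 194, 244 and 201.1 in duodenal, 249, 364, 261 and 259 in jejunal and 313, 261, 293 and 314 CPM in ileal libraries (-0.52 ± 0.108, adjusted p = 0.00380). Srebf1, the source of the fatty acid SREBP, was at 76.98, 84.7, 94.7 and 83.2 in duodenal, 104, 153, 96.8 and 112 in jejunal and 143, 111, 118 and 123 CPM in ileal libraries (-0.50 ± 0.102, adjusted p = 0.00371). In these 3 genes no duodenal library reached the jejunal or ileal range, as in 2.75% of all genes tested with the duodenal libraries below and 1.76% with them above. Mylip (-0.38 ± 0.0662, adjusted p = 0.00107) and Tm7sf2 were lower as well, the latter at 10.7, 9.93, 10.9 and 12.4 in duodenal, 11.2, 15.03, 12.9 and 14.8 in jejunal and 12.9, 14.1, 14.03 and 16.7 CPM in ileal libraries (-0.34 ± 0.0907, adjusted p = 0.0168), as was Pmvk (-0.22 ± 0.0674, adjusted p = 0.0359).

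These duodenal calls did not hold under every setting. Adipocyte RNA moved with the comparison, 10 of 12 adipocyte genes being lower in duodenal nodes, as did macrophage RNA, with 8 of 10 genes lower, and acinar RNA was high in duodenal libraries 1 and 2. With adipocyte level as covariate the change of Fasn was -0.18 (adjusted p = 0.766), of Acly -0.21 (adjusted p = 0.219) and of Srebf1 -0.22 (adjusted p = 0.235), and Sqle and Mylip were the members still called. With the macrophage level as covariate, a fit added after seeing the data that called 3 of the 29411 genes, 0 members were called higher and 0 lower by edgeR, Sqle being at 0.35 (adjusted p = 1) and Mylip at -0.04 (adjusted p = 1). Without duodenal libraries 1 and 2, Sqle was the member still called, with 0.45 (adjusted p = 0.0145), while 2.45% of all genes tested in that fit were called. Fasn lost its call without duodenal library 1 or 2 (adjusted p of 0.0681 to 0.0711), Tm7sf2 without duodenal library 2 (adjusted p = 0.0876), and Pmvk without duodenal library 2, 3 or 4, jejunal library 1 or 4, ileal library 1, 2 or 4, ceco-colonic library 1, 2 or 4, inguinal library 2, 3 or 4 (adjusted p of 0.0509 to 0.183).

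Duodenal and ceco-colonic nodes, whose adipocyte sums overlapped and between which 0 of 12 adipocyte genes were called by edgeR, gave a contrast that uses no jejunal or ileal library. Of 29 members 8 were higher in duodenal nodes and 3 lower, beside 16.4% of all genes tested called, 8.24% higher and 8.17% lower. It shares its libraries with comparisons above. Of 12 acinar genes 12 were higher in duodenal nodes and 0 lower, and of 7 smooth muscle genes 5 and 1. Higher were also 4 of 6 lymphatic endothelial, 3 of 6 blood endothelial and 3 of 8 fibroblast genes, with 0 lower in each list. Dendritic cell genes gave 2 higher and 4 lower of 7, and immediate early and stress genes 0 and 2 of 10. The part of these markers in the member differences was not tested. Sqle (30.2 ± 2.68 against 20.8 ± 2.21 CPM, mean ± SD, n = 4 each; 0.54 ± 0.0906, adjusted p = 3.24e-04) and Stard4 (31.3, 33.2, 29.7 and 30.4 CPM in ceco-colonic libraries, 26.96, 27.8, 29.4 and 26.7 in inguinal ones; 0.33 ± 0.0589, adjusted p = 5.03e-04) were higher. So were Sc5d (0.46 ± 0.0851), Msmo1 (0.49 ± 0.0969), Cyp51 (0.36 ± 0.0824), Hsd17b7 (0.34 ± 0.0979), Insig1 (0.45 ± 0.150) and Acat2 (0.43 ± 0.139). Apart from Hsd17b7, the duodenal libraries of these 8 lay above every ceco-colonic one, as did those of Hmgcs1. Those of 3 members (Pmvk, Scd2 and Ebp) lay below every ceco-colonic one. Over all genes tested, 8.25% had the duodenal libraries above and 9.05% had them below. Pmvk (-0.40 ± 0.0773, adjusted p = 0.00109), Scd2 (-0.27 ± 0.0737, adjusted p = 0.0155) and Ebp (-0.23 ± 0.0744, adjusted p = 0.0422) were lower; Ebp was at 27.8, 23.1, 27.1 and 24.6 CPM in duodenal and 30.8, 28.7, 32.3 and 28.3 CPM in ceco-colonic libraries. Idi1 and Hmgcs1 were at -0.17 ± 0.145 and 0.24 ± 0.0918 and not called (adjusted p = 0.490 and 0.0800). The Acat2 call was lost without duodenal library 2 or 3, ceco-colonic library 1, 2, 3 or 4 (adjusted p of 0.0515 to 0.130), that on Insig1 without duodenal library 2, 3 or 4, ceco-colonic library 1, 2, 3 or 4, inguinal library 4 (adjusted p of 0.0514 to 0.110), that on Hsd17b7 without duodenal library 3 (adjusted p = 0.0730), that on Scd2 without duodenal library 1, ceco-colonic library 1 (adjusted p of 0.0508 to 0.0630) and that on Ebp without duodenal library 2, 3 or 4, jejunal library 1 or 3, ileal library 1, 2, 3 or 4, ceco-colonic library 1, 2, 3 or 4, inguinal library 1, 2, 3 or 4 (adjusted p of 0.0552 to 0.188). Without duodenal libraries 1 and 2 together, Insig1 (adjusted p = 0.0843), Scd2 (adjusted p = 0.0919) and Ebp (adjusted p = 0.140) were not called. Of 10 macrophage genes 4 were lower in duodenal nodes and 0 higher, and with the macrophage level as covariate Acat2 (adjusted p = 0.194), Insig1 (adjusted p = 0.256), Scd2 (adjusted p = 0.106) and Ebp (adjusted p = 0.767) were not called.

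**Figure D3:**
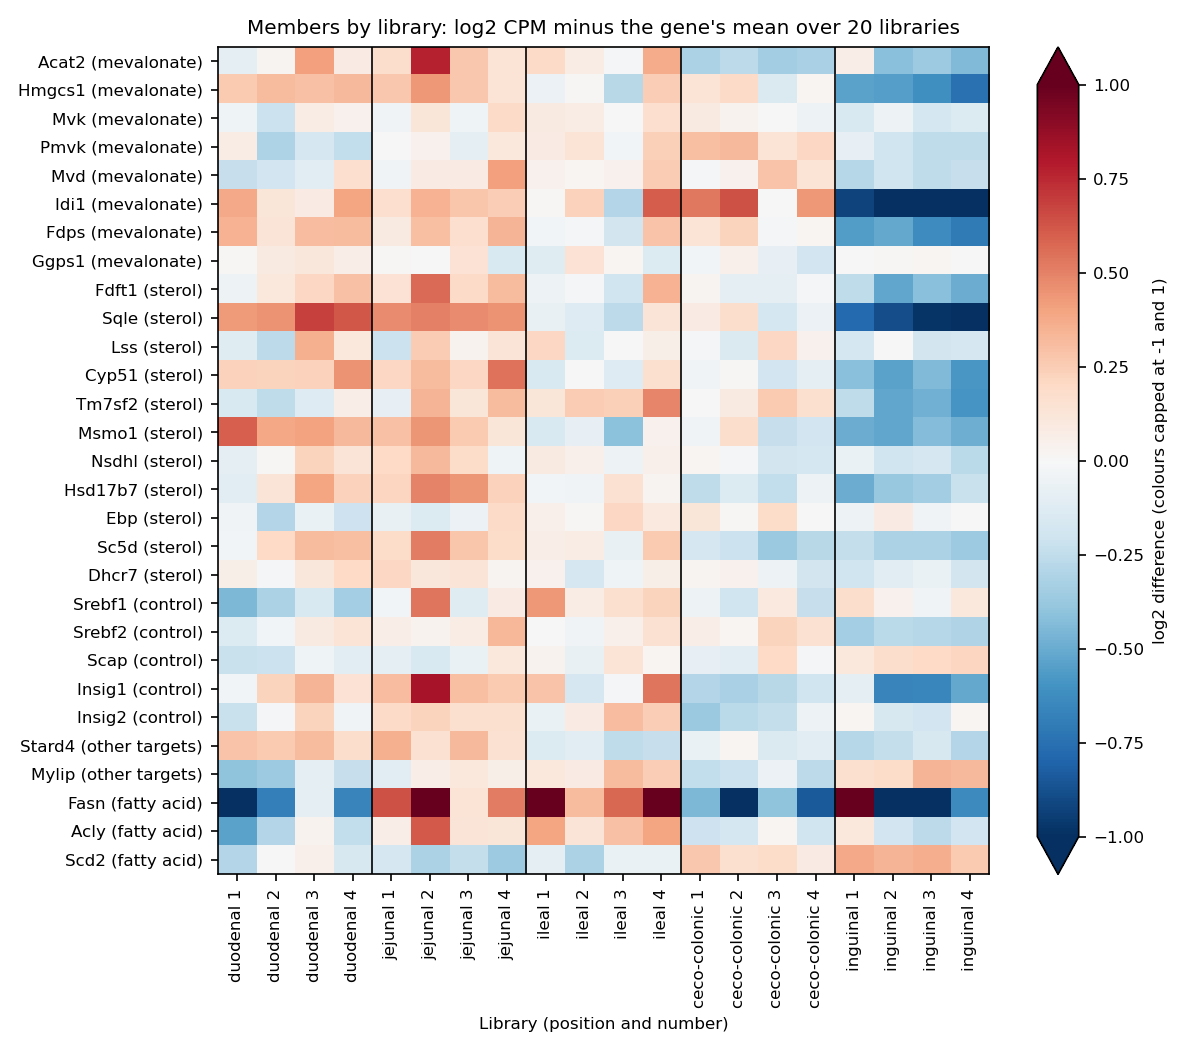
Colour gives log2 CPM minus the gene's mean over 20 libraries, for 29 members (rows, by role) in each library (columns, by position). The inguinal columns are below the mean for most mevalonate and sterol enzymes, and Fasn, Acly and Srebf1 are high in jejunal library 2.

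Other genes of sterol and fatty acid metabolism, 52 fixed by role of which 50 passed the filter, went both ways between gut-draining and inguinal nodes: 9 were higher and 8 lower, with a median log2 fold change of 0.00, where 13.4% of all genes tested were called higher and 12.9% lower. Of 9 genes for SREBP processing and sterol-regulated degradation, such as the proteases Mbtps1 and Mbtps2, 2 were higher and 0 lower. Of 12 genes for sterol uptake, transport and esterification 2 were higher and 4 lower. Cyp7b1, an oxysterol hydroxylase, was higher in gut nodes (11.6 ± 1.52 against 7.19 ± 0.733 CPM; 0.69 ± 0.0794, adjusted p = 1.13e-06). Ch25h, which makes an oxysterol that holds SREBP back (13.7 ± 4.39 against 21.3 ± 4.20 CPM; -0.68 ± 0.160, adjusted p = 0.00304), and the sterol exporter Abcg1 (319 ± 88.7 against 461 ± 36.7 CPM; -0.56 ± 0.116, adjusted p = 8.62e-04) were lower. Between ceco-colonic and inguinal nodes, where 5 were higher and 7 lower beside 10.6% and 10.3% of all genes tested, Cyp7b1 differed by 0.91 ± 0.0963 (adjusted p = 7.03e-07) and the carboxylase Acacb by -0.70 ± 0.167 (adjusted p = 0.00434).

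Small intestinal against ceco-colonic nodes had 8 of these genes higher and 5 lower, beside 8.9% and 7.74% of all genes tested. The lipoprotein receptor Vldlr (0.53 ± 0.116, adjusted p = 0.00294) and Acacb (0.59 ± 0.141, adjusted p = 0.00585) were higher, and Ch25h (-0.72 ± 0.166, adjusted p = 0.00443) and Abcg1 (-0.51 ± 0.121, adjusted p = 0.00560) lower. With the adipocyte covariate Vldlr (adjusted p = 0.0916), Acacb (adjusted p = 0.165) and Ch25h (adjusted p = 0.122) were not called, and Abcg1 lost its call without ceco-colonic library 3 (adjusted p = 0.0571). Duodenal against jejunal and ileal nodes had 2 higher and 19 lower, beside 6.42% and 7.47% of all genes tested. Among the lower ones were 5 of the 5 genes of sterol export and its receptor LXR that passed the filter and 6 of 13 of fatty acid synthesis. Macrophage markers (8 of 10) and adipocyte markers (10 of 12) were lower in the same comparison. Scd1, the main desaturase of fat (90.7 ± 55.9 against 686 ± 436 CPM; -2.91 ± 0.735, adjusted p = 0.0133), Acaca (-0.88 ± 0.226, adjusted p = 0.0146) and Abcg1 (-0.51 ± 0.135, adjusted p = 0.0162) were lower. With the adipocyte covariate their adjusted p were 0.0892, 0.642 and 0.104; Acaca was also lost without duodenal library 1 (adjusted p = 0.0547) and Abcg1 without duodenal library 1 or 2 (adjusted p of 0.0575 to 0.0753).

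Tmem97, a binding partner of the sterol transporter Npc1, was higher in duodenal nodes than in jejunal and ileal ones (0.78 ± 0.155, adjusted p = 0.00299) and than in ceco-colonic ones (0.91 ± 0.185, adjusted p = 0.00177). It was at 18.1, 18.7, 9.78 and 7.83 CPM in duodenal libraries 1 to 4 and at 6.92 to 8.90 CPM in the other gut nodes, so the difference was largest in the pair of duodenal libraries with high acinar RNA. Without these 2 libraries it was 0.15 (adjusted p = 0.408) against jejunal and ileal and 0.28 (adjusted p = 0.0630) against ceco-colonic nodes. Duodenal against ceco-colonic nodes had 4 of the 52 higher and 8 lower, beside 8.24% and 8.17% of all genes tested, with Abcg1 at -0.85 ± 0.153 (adjusted p = 6.09e-04).

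Members differed in how they followed the fat in a library. Over the 20 libraries, which share position and depth, the correlation of log2 CPM with the mean adipocyte marker level was 0.94 for Fasn, 0.91 for Acly, 0.77 for Acat2, 0.74 for Srebf1 and 0.72 for Insig1. As deviations from the position means these values were 0.88, 0.80, 0.75, 0.72 and 0.78. Idi1 (0.19, and -0.04 as deviations), Sqle (0.24 and 0.26), Hmgcs1 (0.25 and 0.20), Msmo1 (0.08 and -0.07) and Stard4 (-0.01 and -0.36) had lower values in both measures. In between stood other sterol enzymes, among them Nsdhl (0.61 and 0.53), Sc5d (0.59 and 0.59), Tm7sf2 (0.56 and 0.32) and Fdft1 (0.54 and 0.61). Insig2 (0.71 and 0.44) stood there too. With the mean fibroblast level the correlation was 0.84 for Sqle, 0.84 for Fdps, 0.82 for Hmgcs1 and 0.80 for Idi1, and -0.05, -0.06, -0.10 and -0.25 as deviations. With the mean blood endothelial level it was -0.92 for Tm7sf2 and -0.74 for Idi1, and -0.68 and -0.38 as deviations. With the mean immediate early and stress level it was 0.84 for Mvd and 0.77 for Srebf2, and 0.78 and 0.77 as deviations. Msmo1 (0.06, and -0.37 as deviations) and Stard4 (-0.06 and -0.51) had low or negative values with that list. Their part in the levels of these members was not tested. Fasn reached 688 CPM in inguinal library 1, the inguinal library with the highest adipocyte sum, and 127, 119 and 171 CPM in the other inguinal libraries. Among the 19 mevalonate and sterol enzymes the median correlation over 171 pairs was 0.54 over the 20 libraries and 0.30 for deviations from the position means. These are descriptions over libraries, with no test.

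**Figure D4:**
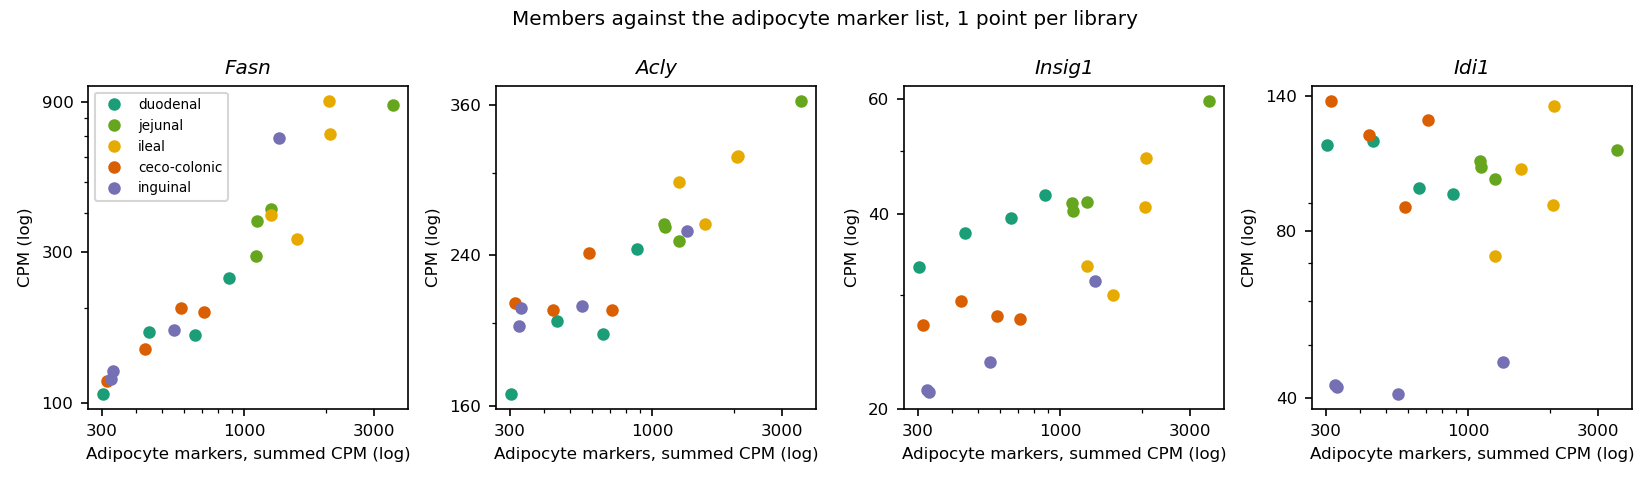
CPM of Fasn, Acly, Insig1 and Idi1 (vertical, log axes) against the summed CPM of 12 adipocyte genes (horizontal, log axes), 1 point per library, coloured by position. The correlation of log2 CPM with the mean adipocyte marker level is 0.94 for Fasn and 0.19 for Idi1, whose 4 inguinal points lie below all others.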

How the data were processed

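Polyadenylated RNA of whole lymph nodes was measured in 20 libraries, 4 from each of 5 positions. The submitters' processing notes name kallisto, edgeR and limma, and the builds GRCm39 and mm10. Versions, and which build served for what, are not stated there. The gene table deposited by the authors holds expected counts per gene. Length-scaled TPM rebuilt from the transcript tables came within 0.001 on the log2 scale of 99.7% of its values (12483 genes with at least 500 counts). The transcript tables deposited by the authors hold estimated counts and TPM for 149419 transcripts. A row named no gene in 135 of 56258 cases and was kept under its identifier.

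After rounding, edgeR 4.0.16 in R 4.3.3 was used: filterByExpr by position (minimum count 10, minimum total 15) left 29411 genes, TMM scaled the libraries, and 1 quasi-likelihood fit of all 20 libraries gave every comparison. A call needs an adjusted p (Benjamini-Hochberg, all genes tested) under 0.05. Standard errors are model-based, and CPM are given with the SD over libraries. A prior count of 2 entered log2 CPM. The alternatives were DESeq2-type size factors, DESeq2 1.42.0, limma-voom (limma 3.58.1), no filter, counts summed from transcripts, the replicate number as a block, only the positions compared, leaving out libraries, and the adipocyte level as a covariate. A fit without jejunal library 2 and inguinal library 1 and one with the macrophage level as a covariate were added after seeing the data. Jejunal and ileal nodes have equal weight in the contrasts of gut with inguinal, small intestinal with ceco-colonic and duodenal with jejunal and ileal nodes. These contrasts therefore do not use the difference between them. All comparisons share the fit's estimate of each gene's spread, so their tests are not fully independent of that difference or of each other. On simulated data with 100 changed genes per size, 1.5-fold changes were recovered in 95% of cases for gut against inguinal nodes. The shares were 90% for small intestinal against ceco-colonic and 91% for duodenal against jejunal and ileal nodes. Changes of 1.25-fold were recovered in 43%, 42% and 41% of cases, in the same order. These shares are over genes drawn at random, not for each member. A member that was not called may therefore still have changed by about that much, and by more where its libraries spread widely, as those of Fasn did.

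The members and lists were chosen with earlier results of these data known. Library values are printed for the 8 members with the largest jejunal to ileal difference, for up to 4 called members of smallest p per direction and comparison, and for Srebf1, Srebf2, Scap, Insig1 and Insig2. Other pathway genes are named where they are among the 4 of smallest p and changed by at least 0.5 (log2). Some genes of the pathway are not reported here. Replicate numbers were not used as pairs, since the labels do not say what they mark and not every pair with the same number correlated above 0.1. Yet 17 of 20 libraries were closest to their own number, so a shared source is possible. Counts with that number as a block are given at the end. Gene coordinates come from RefSeq (GRCm38.p6) for the promoter windows alone. Strand was not stated, so antisense reads could not be told apart.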

Additional observations from a re-analysis of the deposited data

Results flagged for a closer look

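In 145 groups of 4 libraries (29 members in 5 positions), 1 library stood apart from the other libraries of its position in 10 groups (6.90%) by its gap to the nearest other library, set against Dixon's critical value; chance gives about 1 group in 20. Enzymes of the mevalonate and sterol branches with such a library were Acat2 in inguinal library 1 (13.7 CPM, others 9.67 to 10.2), Mvd in ileal library 4 (36.5 CPM, others 30.98 to 31.5), Lss in inguinal library 2 (15.7 CPM, others 13.8 to 13.99) and Cyp51 in duodenal library 4 (57.1 CPM, others 48.8 to 49.2). Control genes were Srebf2 in jejunal library 4 (240.1 CPM, others 196 to 200.8) and Insig1 in jejunal library 2 (59.7 CPM, others 40.3 to 41.6). Fatty acid genes were Fasn in inguinal library 1 (688 CPM, others 119 to 171), Acly in jejunal library 2 (364 CPM, others 249 to 261), Acly in ceco-colonic library 3 (241 CPM, others 207 to 211) and Scd2 in ileal library 2 (lowest, 92.4 CPM, others 108 to 110.0). Of these, inguinal library 1, jejunal library 2 and ileal library 4 were also the libraries with the highest adipocyte sum of their positions.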

How the results depend on the processing

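Leaving out each library in turn gave 15 to 19 members higher and 3 lower in gut-draining against inguinal nodes, 8 to 11 and 2 in small intestinal against ceco-colonic, 3 to 5 and 3 to 7 in duodenal against jejunal and ileal, 5 to 9 and 1 to 3 in duodenal against ceco-colonic, 10 to 12 and 1 to 2 in ceco-colonic against inguinal, and 5 to 9 not overlapping between jejunal and ileal nodes. The 9 came without jejunal library 4 or ileal library 4. In duodenal against jejunal and ileal nodes, 5 were higher without ileal library 4 and 3 lower without duodenal library 2. In duodenal against ceco-colonic nodes, 5 were higher without duodenal library 3 and 1 lower without ceco-colonic library 1. In ceco-colonic against inguinal nodes, 2 were lower without ceco-colonic library 3. With the adipocyte covariate, small intestinal against ceco-colonic nodes had 3 higher and 1 lower, and duodenal against jejunal and ileal nodes 1 higher and 1 lower. The latter had 5 higher with counts summed from transcripts, 1 higher and 0 lower without duodenal libraries 1 and 2, and 0 higher and 0 lower with the macrophage covariate, in a fit that called 3 genes of 29411. Duodenal against ceco-colonic nodes had 1 lower with only the positions compared, without duodenal libraries 1 and 2, and with the macrophage covariate. Ceco-colonic against inguinal nodes had 2 lower with only the positions compared and with the macrophage covariate. TPM left 3 members not overlapping between jejunal and ileal nodes. Of the members called, 18 of 22, 4 of 11, 0 of 9, 6 of 11 and 11 of 13, in the order above, were called in each of 31 settings. No member was called in the opposite direction in any of them. Scd1, not called in gut-draining against inguinal or small intestinal against ceco-colonic nodes, changed sign under the adipocyte covariate and was called lower (-0.48 and -0.45). Abcg1 in duodenal against jejunal and ileal nodes stood at 0.12 under the macrophage covariate (adjusted p = 1). The cause of these changes was not tested.

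Replicate numbers are shared by all positions, but of 40 pairs of libraries with the same number 13 had deviations correlated above 0.1 and 7 below 0 (median 0.08), and 17 of 20 libraries were closest to their own number. With the replicate number as a block, 19 members were higher and 3 lower in gut-draining against inguinal nodes, 10 and 2 in small intestinal against ceco-colonic, 3 and 9 in duodenal against jejunal and ileal, 6 and 4 in duodenal against ceco-colonic (Acat2 and Insig1 losing their calls), and 12 and 2 in ceco-colonic against inguinal nodes. Depth did not limit the members, whose lowest value in any library was 5.64 CPM (Hsd17b7, inguinal library 1).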
